A study of Mus musculus with 8 samples.

Results

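The genes described here are 39 listed genes of DNA replication and S phase, from origin recognition to the copying of chromatin behind the fork. Each was found by its gene symbol on the array annotation, and where several probe sets matched, the one whose average over all 8 arrays was highest was taken. Of the 39 genes, 37 were measured, among 12394 genes in all. Gins2 and Chaf1a were not found under their symbols and are not analysed here. The rule for the genes uses their names, and the list was drawn up with earlier results of these data known.

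The arrays profiled RNA of CD4-CD8- cells sorted from female C57BL/6 mice aged 6 to 8 weeks, after the dye FITC had been injected into the thymus. The 4 groups of 2 arrays each were emigrants (recent thymus emigrants, taken from spleen) after TCDD, emigrants after corn oil, thymocytes (taken from thymus) after TCDD and thymocytes after corn oil. TCDD (2,3,7,8-tetrachlorodibenzo-p-dioxin), a dioxin that binds the aryl hydrocarbon receptor, was given at 10 µg/kg into the peritoneum. FITC followed after 5 days and the cells were sorted 24 h later, so all 4 groups share the injection into the thymus and the sort. The sort without CD4 and CD8 leaves a mixture that can hold early thymocytes and cells of other lineages. The groups follow the sample titles, and other labels go against them in places. The Treatment field of the first array of oil emigrants names TCDD at 10 nM, the same field of the second oil emigrant array names dioxane, thymus stands in the Tissue field of some emigrants, and the protocol text of the TCDD thymocytes names corn oil alone. The main counts and single-gene differences that rest on the first array of oil emigrants are therefore also given without it. Separate mice or pools are not stated for the 2 arrays of a group. The p-values therefore measure only how far these samples spread, and that spread may be technical.

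A cell that divides copies its DNA once per cycle. The origin recognition complex, Cdc6 and Cdt1 load the ring-shaped MCM helicase onto origins, geminin (Gmnn) blocks a second loading, and Cdc45, the GINS complex and Mcm10 turn the loaded ring into an active helicase. Primase and polymerase alpha start each strand, the clamp loader places the PCNA clamp, polymerases delta and epsilon extend the strands, and Fen1 trims the flaps between fragments. Many of these genes are transcribed late in the gap before S phase under E2F transcription factors, and in the thymus the CD4-CD8- stage includes rapidly dividing progenitors.

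The promoters are shown because nearly all of the genes had their highest level in the same group and E2F sites are a feature known to be common among them. RefSeq promoters (GRCm38.p6, 250 bases before to 50 after the start of transcription) were at hand for 32 of the 37 measured genes. Mcm4, Gmnn, Gins1, Prim2 and Pole had no entry. The E2F letters TTTCCCGC or TTTGGCGC, searched on both strands, were found in 11 of the 32 (34.4%), in 294 of 9888 measured genes with a promoter (2.97%) and in 1.56% of all 32851 promoters. The 11 genes were Cdc6, Cdt1, Dnmt1, Mcm3, Mcm5, Mcm6, Mcm7, Pola1, Pold1, Pole2 and Rfc3. CCAAT, the letters of the NF-Y box, were in 20 of 32 (62.5%) against 42.3% of measured genes. GCGTG, the core letters bound by the aryl hydrocarbon receptor, were in 18 of 32 (56.2%) against 50.2% of measured genes. A match describes the letters in the window and is not a bound site. The 180 bases before the start follow for the 5 genes whose E2F match lay there, read 5′ to 3′ on the strand of the gene, with the match on either strand in capitals.
Mcm6 (chr1:128359706-128359885, minus strand): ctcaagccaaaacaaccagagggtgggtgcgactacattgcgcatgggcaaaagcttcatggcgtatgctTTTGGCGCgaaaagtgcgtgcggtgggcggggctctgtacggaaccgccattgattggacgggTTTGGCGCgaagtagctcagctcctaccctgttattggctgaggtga
Mcm7 (chr5:138171884-138172063, minus strand): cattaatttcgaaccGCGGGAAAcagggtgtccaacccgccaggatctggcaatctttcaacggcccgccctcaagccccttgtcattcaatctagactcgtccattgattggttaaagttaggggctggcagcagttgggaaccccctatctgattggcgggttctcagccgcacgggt
Mcm5 (chr8:75109329-75109508, plus strand): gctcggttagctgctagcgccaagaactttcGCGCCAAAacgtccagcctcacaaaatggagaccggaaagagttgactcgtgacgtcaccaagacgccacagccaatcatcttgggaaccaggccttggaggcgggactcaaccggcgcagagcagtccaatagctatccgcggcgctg
Cdc6 (chr11:98907971-98908150, plus strand): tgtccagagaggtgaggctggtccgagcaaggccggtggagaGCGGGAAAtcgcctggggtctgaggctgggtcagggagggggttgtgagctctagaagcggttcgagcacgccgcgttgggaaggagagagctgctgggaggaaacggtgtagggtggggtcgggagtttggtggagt
Pola1 (chrX:93632156-93632335, minus strand): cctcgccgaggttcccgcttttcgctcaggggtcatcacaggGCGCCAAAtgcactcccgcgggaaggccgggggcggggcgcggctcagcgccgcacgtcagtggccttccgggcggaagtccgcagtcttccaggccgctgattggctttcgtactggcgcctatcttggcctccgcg
Mcm6 held 2 matches, at positions -110 and -47 from the start, and the other 4 promoters held 1 each. In the other 6 genes the match lay in the first 50 bases after the start, and those sequences are not printed. The start is that of the promoter entry, which can lie inside the annotated bounds of the gene. The printed bases lie wholly inside those bounds for Mcm7, Cdc6 and Pola1, partly for Mcm5 and outside for Mcm6.

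All values below are log2 levels as deposited, on which 1 unit is a doubling. Levels of different probe sets are not on a common scale, so each gene is compared only with itself across arrays. Array medians lay between 4.81 and 4.91, and 27 probe sets against Bacillus RNA lay between 2.81 and 4.76. Of the 37 genes, 33 had no group with both arrays below the array medians. Pola2 and Rfc3 lay below them in both emigrant groups, and Tyms and Chaf1b lay below the medians in all 4 groups, so for these 4 genes no fold is given. The actin probe sets at the 3′ end exceeded those at the 5′ end by 3.79 to 4.68 in TCDD emigrants, 3.34 to 3.92 in oil emigrants, 3.06 to 4.31 in TCDD thymocytes and 3.12 to 4.12 in oil thymocytes. These actin ranges overlap between all 4 groups. For Gapdh the excess was 4.97 and 5.32 in TCDD emigrants and 4.81 and 4.91 in oil emigrants, which did not overlap. It was 5.9 and 4.78 in TCDD thymocytes and 6.23 and 4.97 in oil thymocytes. In both thymocyte groups the first array had the larger excess for actin and for Gapdh. The 5′ probe set of 18S ribosomal RNA was high in the first array of each emigrant group, at 7.81 after TCDD and 7.07 after oil, and between 3.95 and 4.29 in the other 6 arrays.

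Replication genes were highest in oil thymocytes. For 36 of the 37 genes the mean of oil thymocytes was the highest of the 4 group means, which held for 27.3% of all genes. The lowest group mean lay in TCDD emigrants for 27 genes, in oil emigrants for 8, in TCDD thymocytes for 1 and in oil thymocytes for Rpa1. Averaged over the 37 genes, the level was 7.02 and 6.75 in TCDD emigrants, 6.72 and 7.38 in oil emigrants, 7.76 and 7.45 in TCDD thymocytes and 8.17 and 8.01 in oil thymocytes. All 4 emigrant arrays lay below all 4 thymocyte arrays by this mean, and the TCDD thymocytes lay below the oil thymocytes. Since the samples are bulk RNA, fewer dividing cells and less replication RNA per cell cannot be told apart.

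**Figure D1:**
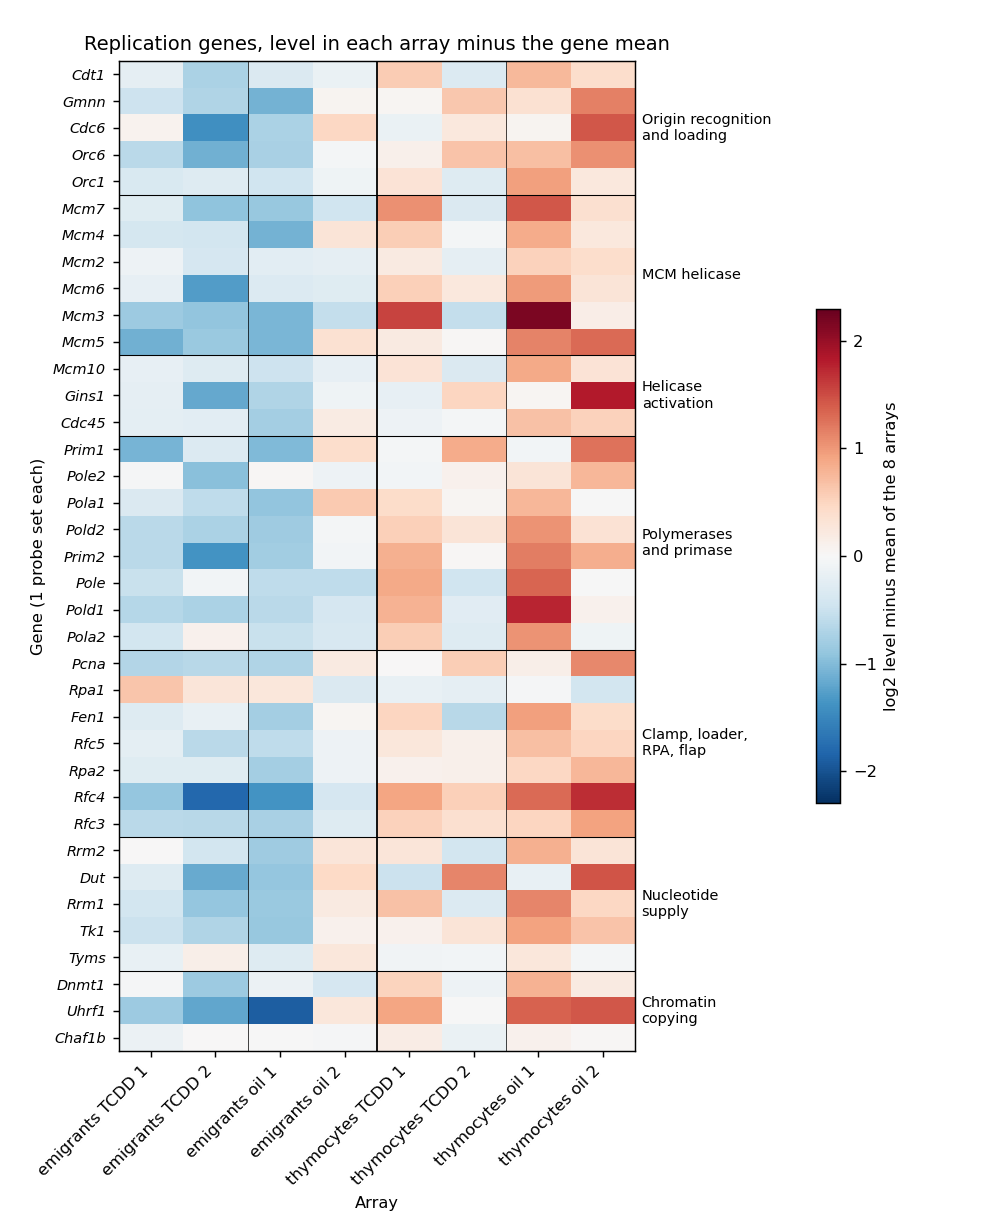
Level of each of the 37 measured genes in each of the 8 arrays (columns) as the log2 level minus the gene's mean over the 8 arrays, ordered by role (rows). The 2 oil thymocyte columns are above the gene's mean for most genes. In 1 of these columns Dut, Prim1, Pola1, Pola2, Pole and Tyms lie below it, and Rpa1 does so in both. Rpa1 is the 1 gene whose highest group mean lies in TCDD emigrants.

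Origin recognition and loading came first in the order of events. Cdt1, which brings the MCM ring to origins, read 9.12 and 8.60 in TCDD emigrants, 9.0 and 9.18 in oil emigrants, 9.91 and 9.02 in TCDD thymocytes and 10.08 and 9.74 in oil thymocytes. Gmnn, its inhibitor, read 8.16 and 7.95 in TCDD emigrants, 7.55 and 8.69 in oil emigrants, 8.68 and 9.25 in TCDD thymocytes and 8.99 and 9.80 in oil thymocytes. Both were lower in each emigrant group than in the matching thymocytes by mean, and the Cdt1 arrays overlapped under TCDD. Orc6, a subunit of the origin recognition complex, read 5.20 and 4.72 in TCDD emigrants, 5.07 and 5.78 in oil emigrants, 5.93 and 6.47 in TCDD thymocytes and 6.51 and 6.86 in oil thymocytes. All 4 emigrant arrays lay below all 4 thymocyte arrays for Orc6. It was lower in emigrants than in thymocytes by 1.26 under oil (SE 0.33, limma adjusted p = 0.305) and by 1.24 under TCDD (adjusted p = 0.403).

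Within the MCM ring, Mcm5 and Mcm2 had the smallest unadjusted p-values for TCDD in thymocytes. Mcm5 read 5.16 and 5.41 in TCDD emigrants, 5.22 and 6.63 in oil emigrants, 6.47 and 6.29 in TCDD thymocytes and 7.42 and 7.57 in oil thymocytes. The 4 thymocyte arrays formed 2 tight pairs with a gap between them, while the oil emigrants were spread over more than 1 log2 unit. After TCDD, thymocytes were 2.17-fold lower in Mcm5 than after oil, a log2 difference of -1.12 (SE 0.42, limma unadjusted p = 0.0364, adjusted p = 1.0). Mcm2 read 8.88 and 8.61 in TCDD emigrants, 8.75 and 8.79 in oil emigrants, 9.20 and 8.78 in TCDD thymocytes and 9.53 and 9.39 in oil thymocytes. Its oil thymocytes stood above the other 6 arrays, and its TCDD difference in thymocytes was -0.47 (SE 0.19, unadjusted p = 0.049, adjusted p = 1.0).

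Other MCM subunits differed more between the arrays of a group. Mcm3 read 6.30 and 6.23 in TCDD emigrants, 6.07 and 6.59 in oil emigrants, 8.68 and 6.59 in TCDD thymocytes and 9.29 and 7.29 in oil thymocytes. The difference between oil emigrants and oil thymocytes was -1.96 with a standard error of 0.84, and it was -0.96 without the first oil thymocyte array. Mcm7 read 10.04 and 9.39 in TCDD emigrants, 9.45 and 9.86 in oil emigrants, 11.37 and 9.99 in TCDD thymocytes and 11.75 and 10.69 in oil thymocytes. The 3 further Mcm7 probe sets above the median gave -1.13 to -2.31 for emigrants against thymocytes under oil, on either side of the -1.56 of the chosen one. Mcm4 read 8.74 and 8.72 in TCDD emigrants, 8.06 and 9.44 in oil emigrants, 9.71 and 9.11 in TCDD thymocytes and 10.00 and 9.39 in oil thymocytes, so that its second oil emigrant array lay above its second oil thymocyte array.

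Among the activators of the helicase, Cdc45, the partner of the MCM ring in the moving helicase, read 4.97 and 4.95 in TCDD emigrants, 4.42 and 5.38 in oil emigrants, 5.08 and 5.15 in TCDD thymocytes and 5.87 and 5.73 in oil thymocytes. Oil thymocytes lay above all other arrays, and the TCDD difference in thymocytes was -0.68 (SE 0.30, 1.6-fold, unadjusted p = 0.0607). Mcm10 read 6.73 and 6.61 in TCDD emigrants, 6.44 and 6.72 in oil emigrants, 7.22 and 6.59 in TCDD thymocytes and 7.78 and 7.22 in oil thymocytes, with a TCDD difference in thymocytes of -0.60 (SE 0.28). Gins1, a GINS subunit, read 6.27 and 5.30 in TCDD emigrants, 5.80 and 6.39 in oil emigrants, 6.30 and 6.98 in TCDD thymocytes and 6.53 and 8.31 in oil thymocytes. The 2 oil thymocyte arrays of Gins1 were nearly 2 log2 units apart, and its TCDD difference of -0.78 had a standard error of 0.63.

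Primase and polymerase genes were lower in emigrants. Prim2, the large primase subunit, read 5.77 and 5.02 in TCDD emigrants, 5.60 and 6.33 in oil emigrants, 7.22 and 6.42 in TCDD thymocytes and 7.58 and 7.24 in oil thymocytes. Every emigrant array lay below every thymocyte array. The emigrant difference was -1.45 under oil (SE 0.40, 2.72-fold, adjusted p = 0.323) and -1.43 under TCDD (adjusted p = 0.431). The other Prim2 probe set above the median gave only -0.26 under oil and -0.3 under TCDD. Its emigrant and thymocyte arrays overlapped under both treatments. Prim1, the catalytic primase subunit, read 7.37 and 8.11 in TCDD emigrants, 7.42 and 8.83 in oil emigrants, 8.39 and 9.28 in TCDD thymocytes and 8.37 and 9.68 in oil thymocytes, with groups that overlapped under oil. Pold2, the second subunit of polymerase delta, read 5.83 and 5.72 in TCDD emigrants, 5.64 and 6.41 in oil emigrants, 7.00 and 6.75 in TCDD thymocytes and 7.48 and 6.78 in oil thymocytes, again with all emigrant arrays below all thymocyte arrays. Pole2, a subunit of polymerase epsilon, read 8.16 and 7.23 in TCDD emigrants, 8.22 and 8.08 in oil emigrants, 8.14 and 8.29 in TCDD thymocytes and 8.49 and 8.95 in oil thymocytes. Its first TCDD emigrant array lay above its first TCDD thymocyte array.

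Rfc4, a subunit of the clamp loader, had the largest difference of the 37 genes between emigrants and thymocytes in the chosen probe sets. It read 5.46 and 4.55 in TCDD emigrants, 4.98 and 5.97 in oil emigrants, 7.25 and 6.89 in TCDD thymocytes and 7.66 and 8.04 in oil thymocytes. Every emigrant array lay below every thymocyte array. Emigrants were 5.21-fold lower than thymocytes under oil, a log2 difference of -2.38 (SE 0.42, limma unadjusted p = 0.00112, adjusted p = 0.184), and the difference was -2.07 under TCDD (unadjusted p = 0.00233, adjusted p = 0.345). In the chosen probe set the second TCDD emigrant array, at 4.55, lay in the range of the Bacillus probe sets. The first oil emigrant array, at 4.98, lay just above the array medians. The other Rfc4 probe set above the median gave -1.3 under oil and -1.43 under TCDD. Its second oil emigrant array, at 5.26, lay just above its first oil thymocyte array, at 5.24. Rfc3, another loader subunit, read 4.48 and 4.47 in TCDD emigrants, 4.35 and 4.8 in oil emigrants, 5.63 and 5.47 in TCDD thymocytes and 5.59 and 6.02 in oil thymocytes. Every emigrant array lay below every thymocyte array, but the emigrant values lay in or at the range of the Bacillus probe sets, so no size or test of the difference is given. Rfc5 read 6.53 and 6.15 in TCDD emigrants, 6.18 and 6.64 in oil emigrants, 7.02 and 6.87 in TCDD thymocytes and 7.45 and 7.25 in oil thymocytes. It too had every emigrant array below every thymocyte array.

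Pcna, the sliding clamp, read 10.65 and 10.69 in TCDD emigrants, 10.63 and 11.52 in oil emigrants, 11.32 and 11.88 in TCDD thymocytes and 11.45 and 12.42 in oil thymocytes. Its second oil emigrant array lay just above its first oil thymocyte array, and no comparison of Pcna had an unadjusted p under 0.05. The single-strand binding protein RPA split by subunit. Rpa2 read 6.39 and 6.38 in TCDD emigrants, 5.87 and 6.55 in oil emigrants, 6.76 and 6.77 in TCDD thymocytes and 7.13 and 7.43 in oil thymocytes, with all emigrant arrays below all thymocyte arrays and a difference of -1.07 under oil (SE 0.24, adjusted p = 0.262). Rpa1 read 11.48 and 11.12 in TCDD emigrants, 11.11 and 10.51 in oil emigrants, 10.67 and 10.65 in TCDD thymocytes and 10.83 and 10.42 in oil thymocytes. TCDD emigrants were above all other arrays for Rpa1, by 0.64 against TCDD thymocytes (SE 0.26, unadjusted p = 0.0453, adjusted p = 0.587). The other Rpa1 probe set above the median gave the opposite sign to the chosen one for TCDD in thymocytes and for emigrants against thymocytes under oil.

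**Figure D2:**
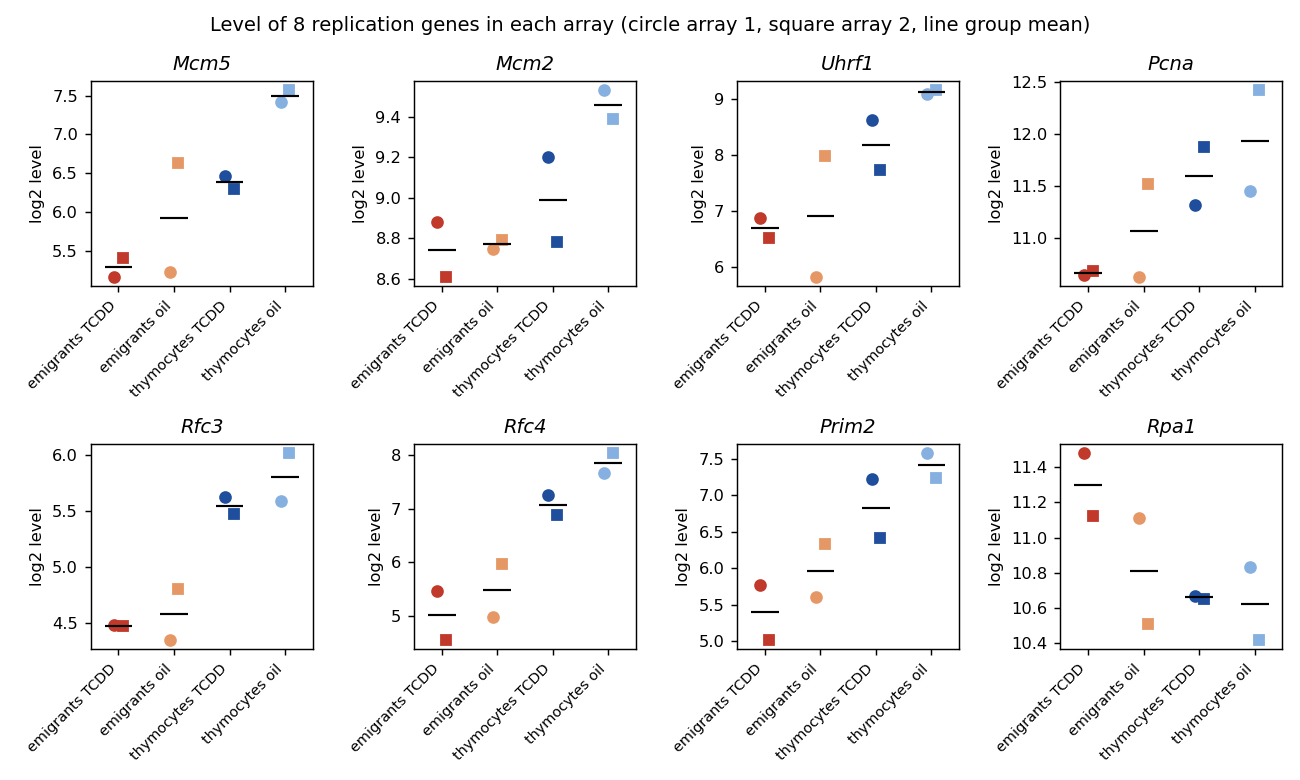
log2 level of 8 replication genes in each array, with circles for the first and squares for the second array of a group and lines for the group mean (n = 2 arrays each), on axes that do not start at 0. In the chosen probe sets, Mcm5, Mcm2 and Uhrf1 place both oil thymocyte arrays above all others. In the same probe sets Rfc3, Rfc4 and Prim2 place all emigrant arrays below all thymocyte arrays, and Rpa1 is highest in TCDD emigrants.

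Rrm2, the small subunit of ribonucleotide reductase, read 10.19 and 9.76 in TCDD emigrants, 9.38 and 10.47 in oil emigrants, 10.47 and 9.76 in TCDD thymocytes and 11.01 and 10.48 in oil thymocytes. Its 3 probe sets gave -0.63, -0.94 and -0.80 for TCDD in thymocytes, although they disagreed on which oil thymocyte array was the higher. Dut, which removes dUTP, read 9.56 and 8.70 in TCDD emigrants, 8.97 and 10.31 in oil emigrants, 9.36 and 10.99 in TCDD thymocytes and 9.68 and 11.30 in oil thymocytes, with arrays of 1 group up to 1.63 log2 units apart. Tk1, the thymidine kinase, read 5.46 and 5.26 in TCDD emigrants, 5.08 and 6.06 in oil emigrants, 6.05 and 6.25 in TCDD thymocytes and 6.89 and 6.62 in oil thymocytes. It was lower in emigrants than in thymocytes by 1.19 under oil (SE 0.32, unadjusted p = 0.00913, adjusted p = 0.318), and the difference was -0.70 without the first oil emigrant array.

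Of the genes that copy chromatin marks, Uhrf1, which brings the maintenance methyltransferase to new DNA, read 6.88 and 6.52 in TCDD emigrants, 5.82 and 7.98 in oil emigrants, 8.62 and 7.72 in TCDD thymocytes and 9.08 and 9.15 in oil thymocytes. The oil emigrant arrays differed by 2.16, and the second overlapped the TCDD thymocytes. Emigrants were lower than thymocytes under oil by 2.21 (SE 0.67, unadjusted p = 0.0156, adjusted p = 0.363). This size rested on the oil emigrant arrays, being -1.14 without the first and -3.29 without the second. Dnmt1, the methyltransferase itself, read 9.47 and 8.67 in TCDD emigrants, 9.37 and 9.12 in oil emigrants, 10.01 and 9.38 in TCDD thymocytes and 10.30 and 9.71 in oil thymocytes, with a difference of -0.76 under oil (SE 0.36). The second Dnmt1 probe set gave -0.77.

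TCDD in thymocytes was the first comparison. Mean levels were lower after TCDD than after oil for 36 of the 37 genes, against 51.4% of all genes, and only Rpa1 was higher, by 0.03. The median difference of the 37 genes was -0.48, against -0.01 over all genes. For 18 of the 37 genes the difference was below -0.5, against 2.03% of all genes. For 14 of 37 genes both TCDD arrays lay below both oil arrays, against 11.4% of all genes. These were 1 of 5 loading genes, 2 of 6 MCM genes, 2 of 3 helicase activators, 2 of 8 polymerase and primase genes, 3 of 7 of the clamp group, 3 of 5 nucleotide genes and 1 of 3 chromatin genes. Some of these gaps were narrow: the nearest arrays of the 2 groups were 0.01 apart for Mcm10, Rrm2 and Prim2. They were 0.03 apart for Tyms, which lay below the array medians in all groups. After Mcm5, the largest differences were those of Uhrf1 (-0.94), Gins1 (-0.78), Rfc4 (-0.78), Fen1 (-0.76) and Cdc6 (-0.70), with standard errors of 0.42 to 0.68.

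No gene passed an adjusted p of 0.05 in limma for TCDD in thymocytes (0.0% of 12394), and 194 genes had an unadjusted p under 0.05. Lower with an unadjusted p under 0.05 were 2 of the 37 genes, Mcm2 and Mcm5, against 0.629% of all genes. No single gene of the set therefore differed beyond the spread between arrays once all genes were counted. Without the second TCDD thymocyte array the median was -0.26 and 27 of 37 genes were lower, and Mcm3, Mcm4, Mcm7, Cdt1, Pola1, Pola2, Pole, Dnmt1 and Chaf1b turned to higher. Without the first TCDD thymocyte array the median was -0.58 and 34 genes were lower, and without the first oil thymocyte array it was -0.37 and 28 genes were lower. Cyp1b1, an inducible target of the aryl hydrocarbon receptor, read 6.87 and 8.36 in TCDD emigrants, 4.69 and 6.25 in oil emigrants, 8.46 and 9.59 in TCDD thymocytes and 4.62 and 5.04 in oil thymocytes.

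Emigrants against thymocytes under oil shares the oil thymocytes with the comparison above, so the 2 are not independent. Replication genes were lower in emigrants for 36 of 37 (49.6% of all genes), with Rpa1 again the exception, and the median difference was -0.94 against 0.00 over all genes. For 17 of 37 genes the difference was below -1, against 2.48% of all genes. The arrays did not overlap, with emigrants lower, for 29 of 37, against 19.6% of all genes, and these were 4 of 5 loading, 5 of 6 MCM, 3 of 3 activator, 6 of 8 polymerase and primase, 5 of 7 clamp group, 3 of 5 nucleotide and 3 of 3 chromatin genes. Among the 29 was Chaf1b, below the array medians in all groups, with its nearest arrays only 0.04 apart. Pola2 and Rfc3, below the medians in emigrants, were also among them. At an unadjusted p under 0.05, 18 of the 37 genes were lower, against 5.09% of all genes. No gene passed an adjusted p of 0.05 in limma (0.0%), although 1186 had an unadjusted p under 0.05. Without the first oil emigrant array, whose Treatment field names TCDD, the median was -0.71, 35 of 37 genes were lower, 9 had an unadjusted p under 0.05 and 9 had a difference below -1 (2.16% of all genes). The second oil emigrant array alone lay below both oil thymocyte arrays for 29 of 37 genes, against 34.2% of all genes. Single-gene differences without the first array were -1.89 for Rfc4, -1.08 for Prim2, -0.90 for Orc6, -0.73 for Rpa2, -1.71 for Mcm3 and -1.36 for Mcm7. Without the second oil emigrant array the median was -1.45.

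Emigrants against thymocytes under TCDD used the other 4 arrays. Replication genes were lower in emigrants for 35 of 37 (42.8% of all genes), with Rpa1 and Tyms higher, and the median difference was -0.71 against 0.04 over all genes. The difference was below -1 for 11 of 37 (2.99% of all genes). The arrays did not overlap, with emigrants lower, for 21 of 37 (15.5% of all genes). At an unadjusted p under 0.05, 9 of 37 were lower (4.45% of all genes) and Rpa1 was higher, and no gene passed the adjusted threshold in limma (0.0%). Without the first TCDD thymocyte array the median was -0.43 and 29 genes were lower. Over both treatments, all 4 emigrant arrays lay below all 4 thymocyte arrays for 10 of 37 genes, against 6.04% of all genes. The 10 were Orc6, Mcm3, Mcm6, Prim2, Pold1, Pold2, Rfc3, Rfc4, Rfc5 and Rpa2, which include all 3 clamp loader subunits of the set. Without the first oil emigrant array the count was 10 as well, against 7.32% of all genes. Mcm3 was among them by a gap smaller than the printed digits, with 6.59 in both the second oil emigrant and the second TCDD thymocyte array. These counts are of the chosen probe sets. Further probe sets above the median overlapped between emigrants and thymocytes for Mcm3, Prim2 and Rfc4, and did not for Mcm6 and Pold1.

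**Figure D3:**
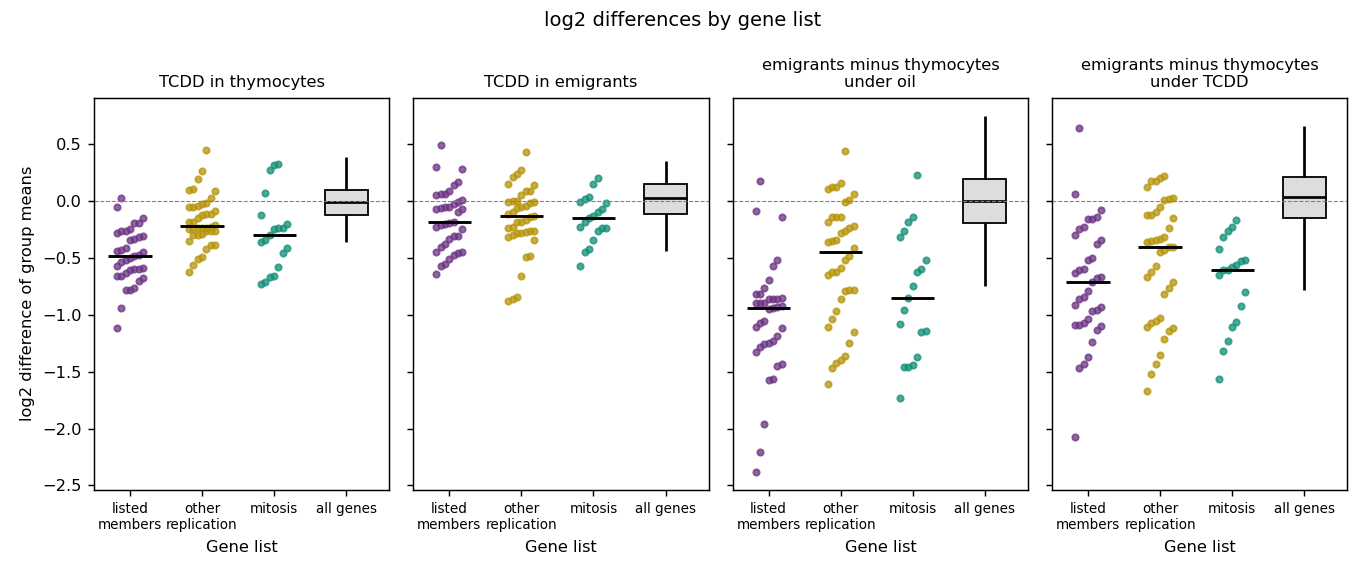
log2 differences of group means in the 4 pairwise comparisons (panels), with 1 point per gene for the 37 listed genes, 40 other replication genes and 19 mitosis genes, a bar at each median, and a box for all 12394 genes (quartiles, with lines to the 5th and 95th percentiles). The listed genes have medians of -0.48 and -0.18 for TCDD in thymocytes and in emigrants, and -0.94 and -0.71 for emigrants minus thymocytes under oil and under TCDD.

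TCDD in emigrants showed no common direction that held over the arrays. Means were lower after TCDD for 27 of 37 genes, against 44.4% of all genes, with a median of -0.18 against 0.03 over all genes. Arrays did not overlap for 1 gene that was lower (Pold1, against 10.1% of all genes) and 2 that were higher (Pole and Rpa1, against 14.6% of all genes). Mcm5 had the lowest difference, -0.64 (SE 0.42), then Prim2 with -0.57, Cdc6 with -0.55 and Dut with -0.51, and Rpa1 had the highest, 0.49 (SE 0.26). None of the 37 genes had an unadjusted p under 0.05, 146 of all genes did, and none passed the adjusted threshold in limma (0.0%). The second oil emigrant array was higher than the first for 32 of 37 genes, by a median of 0.68, while the median absolute difference between these arrays was 0.19 over all genes. Rag1, a recombinase gene of early thymocytes, also differed between them, at 3.89 in the first and 9.81 in the second, against 5.10 and 3.75 in TCDD emigrants and 9.33 to 10.21 in thymocytes. Its part in the result was not tested. Without that second array the median was 0.16 and 10 genes were lower. Without the first oil emigrant array the median was -0.42 and 34 genes were lower, so the sign depended on which oil emigrant array was used.

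The difference of the TCDD differences, emigrants minus thymocytes, was tested as an interaction. It was positive for 32 of 37 genes, against 56.7% of all genes, with a median of 0.34. None of the 37 genes had an unadjusted p under 0.05, and no gene passed the adjusted threshold in limma (0.0%). Without the first oil emigrant array the median was 0.01, and without the second it was 0.68. A TCDD difference that was larger in thymocytes than in emigrants was thus not shown for any gene of the set.

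A further 52 genes of replication, fork protection and histone supply were listed, of which 40 were measured. By mean, 33 of 40 were lower for TCDD in thymocytes (median -0.22; 51.4% of all genes) and 29 of 40 for TCDD in emigrants (-0.14, 44.4%). For emigrants against thymocytes, 33 of 40 were lower under oil (-0.45, 49.6% of all genes) and 32 of 40 under TCDD (-0.40, 42.8%). Without the first oil emigrant array, Cdc7, Topbp1, Asf1b and Hells turned to higher under oil, and no other gene of the 40 changed sign. The mean of the 40 was 6.70 and 7.16 in oil emigrants and 7.58 and 7.35 in oil thymocytes. Arrays did not overlap, with TCDD lower, for 5 of 40 in thymocytes, near the 11.4% of all genes, and for 7 of 40 in emigrants (10.1%). With emigrants lower, the count was 15 of 40 under oil (19.6% of all genes) and 16 of 40 under TCDD (15.5%). None of the 40 passed the adjusted threshold. Dctpp1, which clears unusual dCTP, read 6.65 and 6.95 in TCDD emigrants, 6.44 and 6.98 in oil emigrants, 7.38 and 7.74 in TCDD thymocytes and 8.36 and 8.01 in oil thymocytes. Emigrants were lower than thymocytes in Dctpp1 by 1.47 under oil (SE 0.26, adjusted p = 0.184), and by 1.2 without the first oil emigrant array. Dtymk, the thymidylate kinase, was lower by 1.36 under oil (adjusted p = 0.218) and by 1.21 under TCDD (adjusted p = 0.35). Rfc2, a clamp loader subunit, read 6.91 and 6.95 in TCDD emigrants, 6.88 and 6.98 in oil emigrants, 7.48 and 7.23 in TCDD thymocytes and 7.98 and 7.44 in oil thymocytes, so that every emigrant array lay below every thymocyte array. Rfc1, the large loader subunit, named after its values were seen, overlapped instead, with 6.56 and 6.44 in TCDD emigrants, 6.70 and 6.66 in oil emigrants, 7.77 and 6.47 in TCDD thymocytes and 8.11 and 6.49 in oil thymocytes. Rnaseh2c, a subunit of the nuclease that removes ribonucleotides from DNA, was higher in TCDD emigrants than in oil emigrants by 0.43 (SE 0.18). Tipin and Asf1a, a fork protection factor and a histone chaperone, were lower in emigrants under TCDD by 1.67 and 1.35. Cdc7, the kinase that fires origins, read 7.09 and 7.06 in TCDD emigrants and 7.36 and 8.55 in oil emigrants, with a difference of -0.88 (SE 0.37, unadjusted p = 0.0519).

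Mitosis genes, which act after replication, were lower in 15 of 19 for TCDD in thymocytes (median -0.30), against 51.4% of all genes. They were lower in 18 of 19 for emigrants against thymocytes under oil (median -0.85), against 49.6% of all genes. Without overlap of the arrays, 4 of 19 were lower in the first of these comparisons (11.4% of all genes) and 8 of 19 in the second (19.6%). None of the 19 passed the adjusted threshold. Averaged over the 19 genes, the level was 6.08 and 7.06 in oil emigrants and 7.83 and 6.97 in oil thymocytes. The second oil emigrant array thus lay above the second oil thymocyte array, and the difference under oil leaned on the first oil emigrant array. Mki67, a marker of cycling cells, read 9.29 and 8.45 in TCDD emigrants, 8.50 and 9.27 in oil emigrants, 10.41 and 8.37 in TCDD thymocytes and 10.40 and 7.73 in oil thymocytes, so the arrays of each thymocyte group lay over 2 log2 units apart. Cdk1, the mitotic kinase, read 7.72 and 7.57 in TCDD emigrants, 6.93 and 8.50 in oil emigrants, 8.62 and 8.80 in TCDD thymocytes and 9.10 and 9.25 in oil thymocytes. E2f1 had differences between -0.12 and 0.03 in the 4 pairwise comparisons. Myc, a driver of growth and division, read 5.68 and 4.86 in TCDD emigrants, 5.28 and 5.52 in oil emigrants, 5.88 and 6.00 in TCDD thymocytes and 7.04 and 6.27 in oil thymocytes.

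Markers of some cell types also differed between the groups. Averaged over 14 measured T cell and thymocyte genes, the level was 6.83 and 6.50 in TCDD emigrants, 6.94 and 7.28 in oil emigrants, 7.70 in both TCDD thymocyte arrays, and 7.67 and 7.65 in oil thymocytes. Ptcra, the pre-T cell receptor chain of early thymocytes, read 5.25 and 5.08 in TCDD emigrants, 5.35 and 7.00 in oil emigrants, 8.95 and 9.45 in TCDD thymocytes and 8.83 and 9.20 in oil thymocytes, while Cd3g, a chain of the T cell receptor complex, lay between 8.50 and 9.55 in all 8 arrays. Cd4 read 4.53 to 5.31, near the array medians, in all 8 arrays, and Cd8a read 4.57 to 7.14. The mean of 8 natural killer cell genes was 7.54 and 6.69 in TCDD emigrants, 7.96 and 7.72 in oil emigrants, 6.54 and 7.24 in TCDD thymocytes and 6.39 and 6.66 in oil thymocytes. The mean of 8 macrophage genes was 6.77 and 7.46 in TCDD emigrants, 6.19 and 7.17 in oil emigrants, 5.98 and 6.41 in TCDD thymocytes and 6.25 and 6.46 in oil thymocytes. The mean of 9 granulocyte genes was 6.23 and 6.00 in oil emigrants and 7.72 and 7.01 in oil thymocytes, with a median difference of -1.21 and all 9 genes lower. Under oil, emigrants thus had lower means of the thymocyte and granulocyte lists and a higher mean of the natural killer list. Genes of the thymocyte list went both ways, with a median difference of only -0.25 and a range of -2.84 to 0.8. The natural killer list had a median of 1.37 and a range of -0.35 to 2.7. The part of these cells in the lower replication genes was not tested.

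Between TCDD and oil thymocytes the T cell and thymocyte list was nearly level, with a median difference of 0.05, while 9 granulocyte genes had a median of -0.37 and 8 natural killer genes of 0.35. The granulocyte mean was 7.61 and 6.30 in TCDD thymocytes and 7.72 and 7.01 in oil thymocytes. Among emigrants, the granulocyte mean was 8.36 and 5.70 after TCDD and 6.23 and 6.00 after oil, and the erythroid mean over 8 genes was 6.88 and 5.96 after TCDD and 6.29 and 5.77 after oil. B cell genes (6 measured) averaged 4.91 to 5.84 and platelet genes (6 measured) 5.23 to 5.98 over the 8 arrays. Single B cell genes went both ways between emigrants and thymocytes, from -2.45 to 0.73 under oil and from -2.99 to 0.9 under TCDD. The part of these cells in the TCDD differences of the replication genes was not tested.

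**Figure D4:**
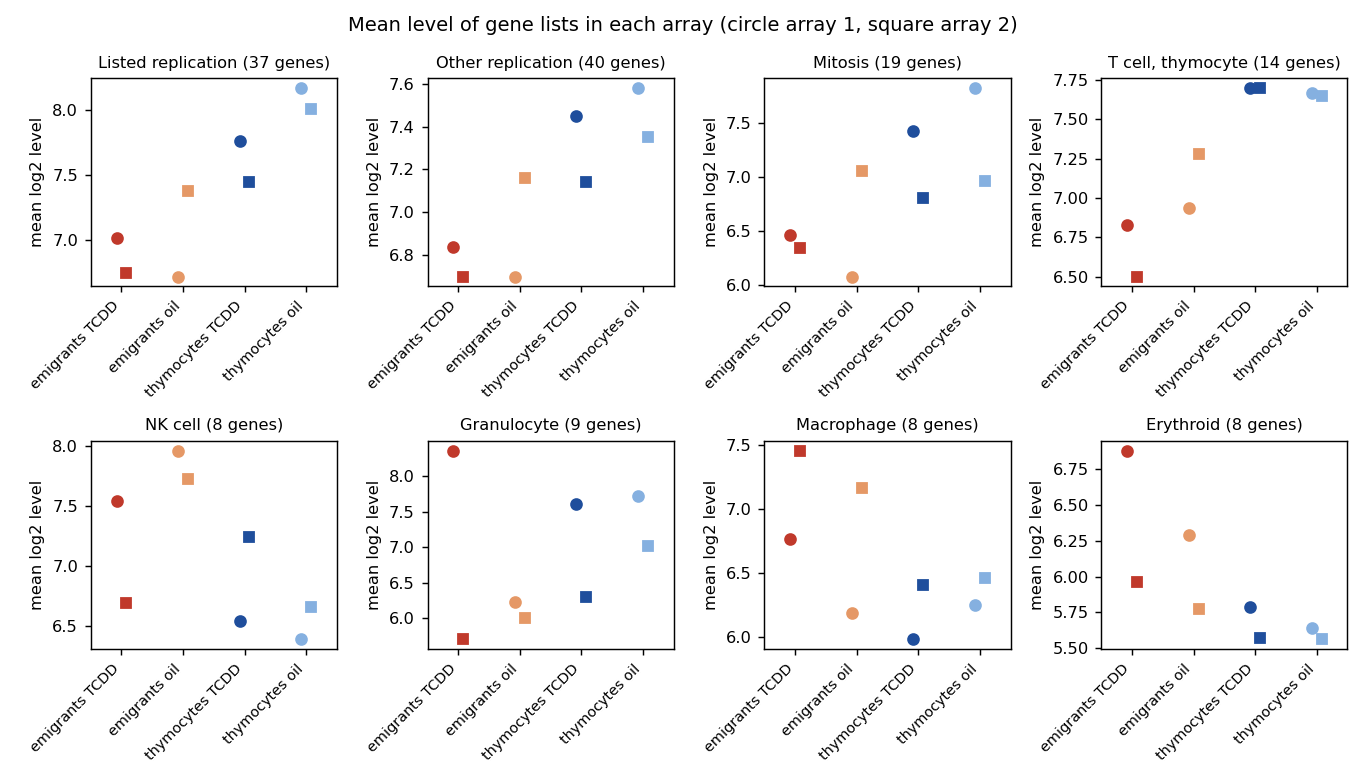
Mean log2 level of 8 gene lists in each array (circle for the first array and square for the second array of a group), on axes that do not start at 0. The 37 listed replication genes are highest in oil thymocytes (8.17 and 8.01), the T cell and thymocyte list separates thymocytes from emigrants without separating TCDD from oil thymocytes, and the natural killer list is highest in oil emigrants (7.96 and 7.72).

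Of the genes with several probe sets, 15 had 19 further probe sets with a mean above the median of the arrays. These had the sign of the chosen probe set in 18 of 19 for TCDD in thymocytes, 14 of 19 for TCDD in emigrants, and 18 of 19 for emigrants against thymocytes under oil and under TCDD. The 5 with the opposite sign for TCDD in emigrants belonged to Fen1, Mcm4, Mcm7, Rrm1 and Rrm2, which had differences of 0.14, -0.01, 0.06, -0.33 and 0.05 in their chosen probe sets.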

How the data were processed

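Amplified RNA of the sorted CD4-CD8- cells was measured on Affymetrix mouse arrays, per the labels' protocols. The values the authors deposited are log2 levels of 22690 probe sets, for which the submitters' processing notes name RMA and no version. RMA makes the distributions of the arrays alike, so a shift common to most genes would not be seen, and it compresses differences of dim probe sets. No probe-level signal was used.

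Gene symbols came from the platform annotation and a RefSeq gene table. Left out were 691 probe sets with several symbols and 1606 with none. The brightest probe set on average stood for its gene, giving 12394 genes with no filter on dim ones. Group means over all 8 arrays were fitted with limma 3.58.1 in R 4.3.3 (two-sided, 4 residual degrees of freedom, Benjamini-Hochberg adjustment over all genes, threshold 0.05). The median residual SD was 0.223. The code was tested on simulated data. The genes, lists and tests were chosen with earlier results of these data known, so a lower level of cycle genes in them is not independent support.

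Array values are given for the 2 members of each role with the highest mean, the 5 with the smallest p in each pairwise comparison, up to 3 other replication genes by p, and fixed cycle and marker genes where a result turns on them. Values of Mcm3, Tk1, Fen1, Cdc6, Rfc1 and Rag1 and the members of small counts were added after they were seen. Alternatives were a repeated quantile normalization, centring, brighter genes alone, averaged or separate probe sets, another prior, only the 4 arrays compared, the replicate number as a block, the Treatment field of the first oil emigrant array, and the omission of each array.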

Additional observations from a re-analysis of the deposited data

Results flagged for a closer look

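Orc4, a subunit of the origin recognition complex among the other replication genes, differed in opposite directions with TCDD in every array of the 2 cell sources. It read 6.72 and 6.73 in TCDD emigrants and 7.32 and 7.45 in oil emigrants, with TCDD lower, and 7.5 and 7.29 in TCDD thymocytes and 6.73 and 7.16 in oil thymocytes, with TCDD higher. The TCDD difference in emigrants minus that in thymocytes was -1.11 (SE 0.26, limma unadjusted p = 0.00498, adjusted p = 1.0). It was picked out among all measured replication genes, listed and other, and does not pass the adjustment over all genes.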

How the results depend on the processing

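The median difference of the 37 genes kept its sign under every alternative for TCDD in thymocytes and for both comparisons of emigrants with thymocytes. Leaving out each array gave medians of -0.59 to -0.26 for TCDD in thymocytes, -0.42 to 0.16 for TCDD in emigrants, -1.45 to -0.71 for emigrants against thymocytes under oil, -0.91 to -0.43 under TCDD and 0.01 to 0.68 for the interaction. It gave 0 to 2 genes past the adjusted threshold for TCDD in emigrants and 0 to 10 under TCDD, with none of the 37 genes among them. Following the Treatment field of the first oil emigrant array turned the interaction median to -0.06, gave -0.46 for TCDD in emigrants with 33 of 37 genes lower, and put 1 gene past the threshold for TCDD in emigrants, 3 under oil, 18 under TCDD and 1 in the interaction. A repeated quantile normalization put 2 genes and the trend and robust prior 1 gene past it under TCDD, and averaged probe sets 1 gene under oil. With 1 array left in a group, that array is assumed to vary like the others.

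The shared replicate numbers are only numbers in the labels. The differences between second and first arrays correlated across all genes with r = 0.76 between the 2 thymocyte groups, 0.50 between the 2 emigrant groups and -0.10 to 0.11 across sources. Compared within each number, 32 of the 37 genes were lower after TCDD than after oil in both thymocyte pairs, against 28.9% of all genes. The replicate block over all arrays called 0 genes in each comparison. The replicate block within source called 1 gene for TCDD in thymocytes, 819 under oil and 462 under TCDD in either direction, with 2 residual degrees of freedom. Called lower in emigrants under oil were 11 of the 37 genes (29.7%), against 3.11% of all genes. Under TCDD this held for 1 of the 37 genes (2.7%), near the 1.94% of all genes. None of the 37 genes was called higher. Arrays in groups of 2 limit the precision of all values, and Tyms and Chaf1b in all arrays, and Pola2 and Rfc3 in emigrants, lay in or at the range of the Bacillus probe sets.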
